A study of Mus musculus with 18 samples.

Results

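A set of 10 genes that encode receptors for inflammatory cytokines and microbial products was followed in RNA of mouse hematopoietic stem cells (HSCs). The genes were taken by name, and 10 of the 24421 symbols in the gene table were members. They are Il1r1 and Il1rap (interleukin 1), Tnfrsf1a and Tnfrsf1b (tumour necrosis factor, TNF), Ifngr1 and Ifngr2 (interferon gamma), Ifnar1 and Ifnar2 (type I interferon), and Tlr2 and Tlr4 (Toll-like receptors). The cells came from bone marrow of Hoxb5-tri-mCherry reporter mice on a C57BL/6J background, at 2 to 3 months (young) or 23 to 25 months (aged). HSCs of the surface phenotype were sequenced as a whole (bulk-HSCs) or split by the reporter into Hoxb5-positive long-term HSCs (LT-HSCs) and Hoxb5-negative short-term HSCs (ST-HSCs). All mice carried the reporter, so there was no group without it. There were 3 libraries for each fraction at each age, 18 in all. Whether the libraries of a group came from separate animals is not given in the sources used here, so the p-values measure the spread between these libraries, which may be technical.

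HSCs meet inflammatory signals through receptors on their own surface as well as through their niche. The interleukin 1 receptor and the Toll-like receptors share an intracellular domain that recruits Myd88 and the Irak kinases. The TNF receptors act through Traf, Ripk1 and death-domain adaptors. The interferon receptors each pair 2 chains that carry Jak kinases and activate Stat factors. Interleukin 1 and the interferons are known to drive quiescent HSCs into division, and inflammation is a known feature of aged marrow.

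Library totals were 16495048 to 22973844 counts. The number of genes detected with at least 1 count was 13526 to 14133 in aged libraries and 11548 to 13876 in young ones. A pair of young libraries, LT-HSC library 3 and ST-HSC library 3, had under 12000 detected genes. Genes whose median over the libraries reached 200 counts were listed at 0 in 2 to 6 cases in an aged library and in 1 to 163 cases in a young one. The HSC marker list, which includes Kit, Slamf1 and Procr, summed to 4140 to 5400 CPM, counts scaled to library size in every library. The level that a count of 0 allows, 3 counts, corresponded to 0.132 to 0.176 CPM, a limit that covers counting error only.

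All 10 members passed the filter of a mean of at least 1 CPM, as did 12808 genes in total, with mean levels of 17.4 CPM (Il1r1) to 140 CPM (Tnfrsf1b). Exon lengths from GENCODE M21, matched for 95.99% of tested genes, gave levels that can be compared between genes. Tnfrsf1a, the death-domain receptor of TNF, had the highest mean level with 48.95 CPM per kb, at percentile 95.3 of the tested genes. Tnfrsf1b, the second TNF receptor, followed with 36.6 CPM per kb and Ifngr1, the ligand-binding chain for interferon gamma, with 34.5. Tnfrsf1a exceeded Tnfrsf1b in 17 of 18 libraries, by a median ratio of 1.29, and Tnfrsf1b exceeded Ifngr1 in 13 of 18, by a median ratio of 1.07.

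Ifnar1 and Ifnar2, the paired chains of the type I interferon receptor, stood at 21.5 and 19.15 CPM per kb. Ifngr1 exceeded Ifnar1 in all 18 libraries and Ifnar2 exceeded Tlr4 in all 18, so that 2 steps in the order held throughout. Below them were Tlr4, which senses lipopolysaccharide, with 8.51 CPM per kb, and Tlr2, which senses bacterial lipoproteins, with 6.49. Ifngr2, the signalling chain for interferon gamma, was at 5.15 CPM per kb. The interleukin 1 chains were lowest, Il1rap with 2.86 and Il1r1 with 2.73 CPM per kb, at percentiles 25.2 and 24.3. The remaining neighbours changed places in 3 to 6 of 18 libraries. The exon model the authors counted with is not given in the sources used here, so these lengths are approximate.

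**Figure D1:**
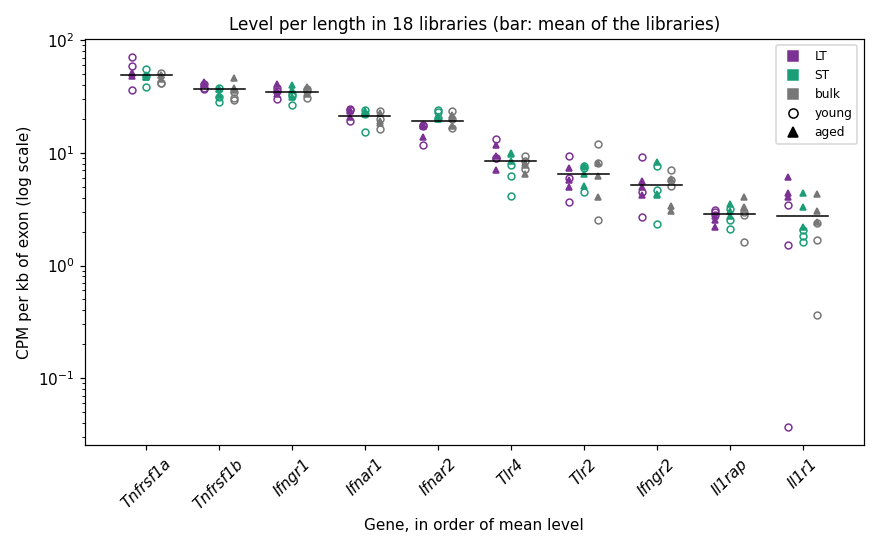
Level of each receptor gene per kilobase of exon, in CPM per kb on a log axis, in 18 libraries; colour gives the fraction, open circles are young, filled triangles aged, and the bar is the mean of the libraries. Tnfrsf1a leads with a mean of 48.95 CPM per kb, and the lone point far below the rest is Il1r1 in young LT-HSC library 3.

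The genes Ifnar2, Ifnar1 and Ifngr2 are neighbours on chromosome 16 of mm10, all on the + strand. Ifnar2 (chr16:91372783-91405589), Il10rb, Ifnar1 (chr16:91485238-91507441) and Ifngr2 (chr16:91547072-91565623) lie within 192.8 kb. Ifnar2 shares 315 exon bases with Gm21970, a gene model on the same strand, and Il1rap (chr16:26581704-26730117) overlaps the antisense gene Gm20319 by 552 bases. Whether strand was used in counting is not given, so reads in those stretches are uncertain. Il1r1 lies at chr1:40225080-40317257 and Tlr4 at chr4:66827584-66930284, and neither shares an exon with another gene. Tnfrsf1a (chr6:125349362-125362484, + strand), Tnfrsf1b (chr4:145213463-145246870, - strand), Ifngr1 (chr10:19591949-19610229, + strand) and Tlr2 (chr3:83836272-83841767, - strand) overlap no other gene.

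RefSeq promoter windows (GRCm38.p6), cut here to the 250 bases before the start, matched 9 of 10 members, with 10 windows because Il1r1 has 2 starts. Tlr4 was not matched. They were searched on both strands for an interferon-response motif (GGAA, any 2 bases, GAAA), the Stat motif TTCNNNGAA, which reads the same on both strands, and an NF-kappaB motif (GGGAC followed directly by TTTCC). No match of one overlapped a match of another. The Stat motif was in the windows of 3 members, Tnfrsf1a, Tnfrsf1b and Ifnar2, and in 7.02% of all 32851 windows. The NF-kappaB motif was in the Ifngr2 window and in 0.14% of all windows. The interferon-response motif, in 2.3% of all windows, was in none of the 10. The 4 windows with a match are shown, with the match in capitals, and the Ifnar1 window is added as the promoter of the other chain of the type I receptor. The Ifnar2 window is chr16:91372533-91372782 (+ strand), Ifnar1 chr16:91484965-91485214 (+ strand), Ifngr2 chr16:91546809-91547058 (+ strand), Tnfrsf1a chr6:125349473-125349722 (+ strand) and Tnfrsf1b chr4:145246871-145247120 (- strand), each written from 5′ to 3′.
Ifnar2: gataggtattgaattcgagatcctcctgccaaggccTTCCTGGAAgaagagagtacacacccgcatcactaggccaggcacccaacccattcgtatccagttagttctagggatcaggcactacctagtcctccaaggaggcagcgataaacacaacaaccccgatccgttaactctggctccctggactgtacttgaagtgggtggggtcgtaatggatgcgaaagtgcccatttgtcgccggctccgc
Ifnar1: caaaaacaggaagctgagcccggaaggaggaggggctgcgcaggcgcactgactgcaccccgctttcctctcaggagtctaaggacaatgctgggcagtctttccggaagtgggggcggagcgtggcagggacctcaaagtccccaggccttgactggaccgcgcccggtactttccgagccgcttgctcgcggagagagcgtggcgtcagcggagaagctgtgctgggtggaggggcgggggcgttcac
Ifngr2: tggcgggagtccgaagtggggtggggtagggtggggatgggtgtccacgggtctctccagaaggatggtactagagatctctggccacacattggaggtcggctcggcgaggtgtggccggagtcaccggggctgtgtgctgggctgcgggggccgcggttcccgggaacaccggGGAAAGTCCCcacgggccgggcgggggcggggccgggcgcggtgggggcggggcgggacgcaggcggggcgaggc
Tnfrsf1a: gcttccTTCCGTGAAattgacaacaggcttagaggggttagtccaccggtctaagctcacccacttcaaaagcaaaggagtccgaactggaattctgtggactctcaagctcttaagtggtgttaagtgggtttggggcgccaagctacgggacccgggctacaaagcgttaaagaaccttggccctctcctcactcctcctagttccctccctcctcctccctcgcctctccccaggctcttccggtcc
Tnfrsf1b: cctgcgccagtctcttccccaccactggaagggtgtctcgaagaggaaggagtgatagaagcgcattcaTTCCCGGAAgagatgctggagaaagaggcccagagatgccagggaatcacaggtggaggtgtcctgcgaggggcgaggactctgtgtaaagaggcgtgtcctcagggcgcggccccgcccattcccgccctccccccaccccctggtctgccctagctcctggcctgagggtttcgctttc
A match is a run of letters and was not tested as a binding site. The Tnfrsf1a window and its match lie before the RefSeq start but inside the GENCODE gene span given above. Of the genes with a match, Tnfrsf1a and Tnfrsf1b were highest in level per kb and Ifngr2 was the eighth.

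The first question was whether receptor expression changed with age. No member passed the test in any fraction with edgeR's quasi-likelihood test at an adjusted p of 0.05. The background of genes that passed was 0.445%, 0.851% and 1.98% (LT-, ST- and bulk-HSCs). DESeq2 and limma-voom also called 0 of 10 in each fraction. At an unadjusted p under 0.05 the members numbered 0, 1 (Tlr4) and 1 (Tnfrsf1b) in the same order, while 8.81%, 9.67% and 13.3% of all genes did so. The median log2 change of the 10 was -0.02, 0.18 and 0.02, beside 0.04, 0.02 and 0.03 over all tested genes. For 7, 6 and 6 members the 95% interval of the change lay within a factor of 2 either way. Il1r1, Ifngr2 and Tlr2 had intervals that reached past 2-fold in every fraction.

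**Figure D2:**
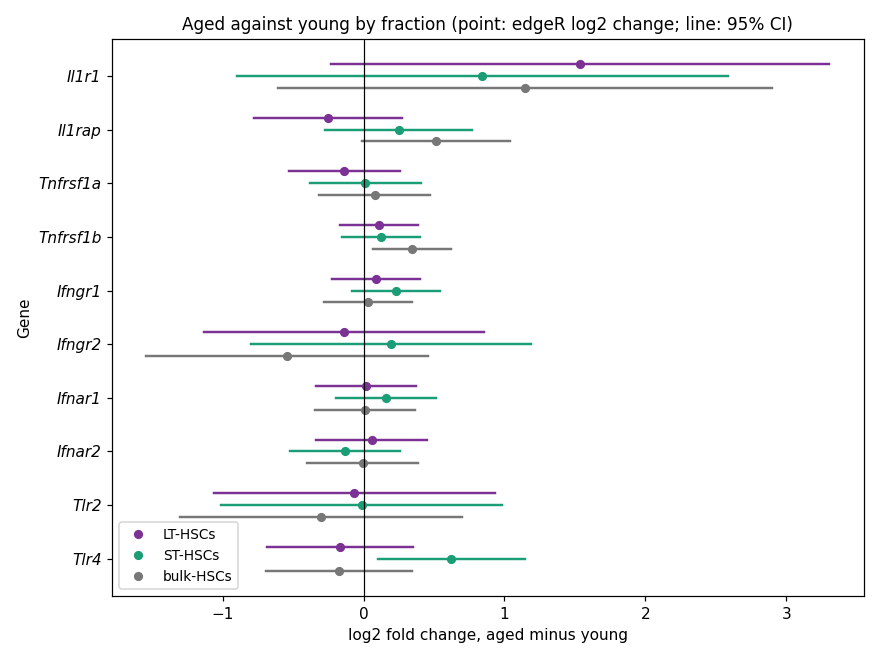
Change with age of each receptor gene, as edgeR log2 fold change (aged minus young, x axis) with its 95% confidence interval, for LT-HSCs, ST-HSCs and bulk-HSCs. Il1r1 has the largest estimates (1.54, 0.84 and 1.14) and the widest intervals, and intervals that leave out 0 belong to Tlr4 in ST-HSCs and Tnfrsf1b in bulk-HSCs, neither past the adjusted threshold.

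Il1r1 encodes the signalling receptor of interleukin 1. In LT-HSCs it was at 22.1, 9.60 and 0.234 CPM in young libraries 1 to 3 and at 38.9, 25.8 and 28.0 CPM in aged ones. The young ST-HSC libraries had 10.4, 11.7 and 13.05 CPM and the aged ones 21.2, 27.8 and 13.99. Every aged library lay above every young library of its fraction, and young LT-HSC library 3 stood apart with 4 counts. In bulk-HSCs the young libraries had 2.29, 10.6 and 15.2 CPM and the aged ones 19.6, 15.5 and 27.2, again without overlap. This separation in all 3 fractions was shared by 248 genes, 1.94% of those tested.

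For LT-HSCs edgeR gave Il1r1 a log2 change with age of 1.54 (SE 0.84, adjusted p = 0.668). For ST-HSCs the change was 0.84 (SE 0.83, adjusted p = 0.912) and for bulk-HSCs 1.14 (SE 0.83, adjusted p = 0.665). The young LT-HSC mean was 10.6 ± 10.95 CPM (SD, n = 3) and the aged 30.9 ± 7.03 CPM (SD, n = 3). The estimate in LT-HSCs rested on single young libraries, since it was 2.64 without library 1 and 0.96 without library 3. In bulk-HSCs it was 0.69 without young library 1.

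A contrast that averaged the 3 fractions, chosen after the values were seen, gave Il1r1 a log2 change of 1.17 (SE 0.48, 95% interval 0.16 to 2.19). Its edgeR adjusted p was 0.172, and the values from DESeq2 (0.0541) and limma-voom (0.0536) also missed the threshold. None of the 10 members passed this contrast with edgeR, DESeq2 or limma-voom, against a background of 6.75%. Il1r1 and Tnfrsf1b, 2 of 10, had an unadjusted p under 0.05, as did 19.7% of genes. With a covariate for how many genes each library detected, the change of Il1r1 was 0.88, and its level correlated with that number over the 18 libraries (r = 0.63, a description). The 4 endothelial markers, carried by Kdr and Cldn5 with Cdh5 at 0 in all 18 libraries, also summed higher with age. Their sum was 28.0 to 65.3 CPM in young and 69.8 to 103 CPM in aged LT-HSCs, 7.70 to 10.7 and 26.5 to 33.2 CPM in ST-HSCs, and 2.97 to 11.7 and 56.3 to 59.1 CPM in bulk-HSCs. Their part in the Il1r1 values was not tested. In such pooled cells, a change in the share of cells with a transcript and a change in RNA per cell cannot be told apart.

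**Figure D3:**
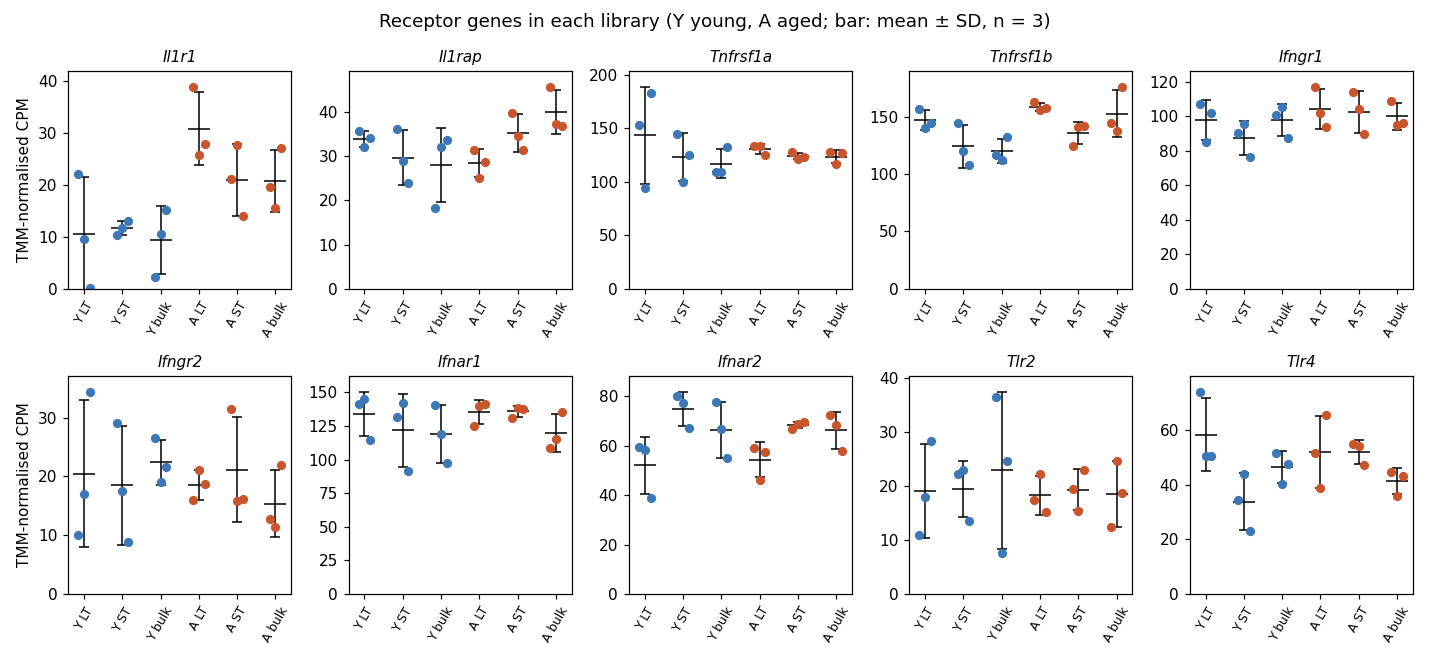
TMM-normalised CPM of each receptor gene in each of 18 libraries, by age (Y young, A aged) and fraction on the x axis; points are libraries and the bar is the mean ± SD (n = 3). The aged Il1r1 libraries, at 13.99 to 38.9 CPM, lie above the young libraries of the same fraction, while Tnfrsf1a and Ifnar1 overlap between ages in every fraction.

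Il1rap encodes the accessory chain that Il1r1 needs for signalling. Its LT-HSC libraries were at 35.6, 32.0 and 34.1 CPM when young and 31.4, 25.2 and 28.7 CPM when aged, so the aged ones lay lower. Its bulk-HSC libraries were at 18.3, 32.0 and 33.6 CPM when young and 45.7, 37.4 and 36.8 CPM when aged, so the aged ones lay higher. The ST-HSC libraries overlapped, with 23.8 to 36.2 CPM when young and 31.4 to 39.9 CPM when aged. The log2 change was -0.25 (SE 0.25) in LT-HSCs and 0.51 (SE 0.25) in bulk-HSCs, with edgeR adjusted p-values of 0.911 and 0.392. The difference between these changes, -0.77 (SE 0.35), had an edgeR adjusted p of 0.838. Without young bulk-HSC library 1 the bulk change was 0.29.

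The ratio of the chains per kb, Il1rap to Il1r1, was 0.904, 1.87 and 81.5 in young LT-HSCs and 0.453, 0.547 and 0.575 in aged ones. The value of 81.5 came from the library with 4 Il1r1 counts. In ST-HSCs the ratio was 1.02 to 1.95 when young and 0.695 to 1.26 when aged, which overlapped. In bulk-HSCs it was 1.24 to 4.47 when young and 0.757 to 1.35 when aged, which also overlapped.

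Tnfrsf1b was at 116, 112 and 132 CPM in young bulk-HSCs and 145, 137 and 176 CPM in aged bulk-HSCs, without overlap. The log2 change was 0.34 (SE 0.13, adjusted p = 0.233, edgeR), and 0.23 without aged library 3. In LT-HSCs and ST-HSCs its change was 0.11 and 0.13 and the libraries overlapped. For Tnfrsf1a the log2 changes were -0.14, 0.01 and 0.08 in LT-, ST- and bulk-HSCs. Its spread was uneven, since the young LT-HSC libraries ran from 93.9 to 183 CPM and the aged ones from 125 to 134 CPM.

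Tlr4 was at 34.4, 43.8 and 23.1 CPM in young ST-HSCs and at 54.9, 54.1 and 47.0 CPM in aged ST-HSCs, without overlap. Its log2 change was 0.62 (SE 0.25, unadjusted p = 0.0214, adjusted p = 0.361, edgeR), and 0.42 without young ST-HSC library 3. In LT-HSCs and bulk-HSCs the change was -0.16 and -0.17. The difference in age effect between LT- and ST-HSCs was -0.79 (SE 0.35, adjusted p = 0.9999) and that between ST- and bulk-HSCs 0.80 (SE 0.35, adjusted p = 0.822), both by edgeR. Tlr2 overlapped between ages in all fractions, with libraries from 7.58 to 36.4 CPM, both extremes in young bulk-HSCs.

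Of the interferon receptor chains, none passed the test with age. The log2 changes of Ifnar1 were 0.02, 0.16 and 0.01 in LT-, ST- and bulk-HSCs, those of Ifnar2 were 0.06, -0.13 and -0.01, and those of Ifngr1 were 0.09, 0.23 and 0.03. All 9 had intervals within a factor of 2. Ifngr2, at 8.85 to 34.3 CPM over the libraries, had changes of -0.14, 0.19 and -0.54, and the interval in bulk-HSCs ran from -1.54 to 0.45. No interferon receptor chain was free of overlap between ages in any fraction.

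Members without overlap between ages numbered 2 for LT-HSCs (Il1r1 higher, Il1rap lower), 2 for ST-HSCs (Il1r1 and Tlr4 higher) and 3 for bulk-HSCs (Il1r1, Il1rap and Tnfrsf1b higher). The share of all tested genes without overlap was 16.1%, 17.8% and 22.7%. Differences in age effect between fractions were called for none of the members with edgeR, DESeq2 or limma-voom. The edgeR background was 0% for LT- minus ST-HSCs, 0.00781% for LT- minus bulk-HSCs and 0.0625% for ST- minus bulk-HSCs. One member had an unadjusted p under 0.05 in each (Tlr4, Il1rap and Tlr4), beside 3.92%, 5.82% and 5.78% of genes.

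The second question was whether LT-HSCs differed from ST-HSCs and bulk-HSCs in receptor expression. With edgeR 0 of 10 members were called in young mice, where the background was 0.429% for LT- against ST-HSCs, 0.273% for LT- against bulk-HSCs and 0.164% for ST- against bulk-HSCs. In aged mice 0 of 10 were called, with a background of 0.00781%, 0% and 0%. Members with an unadjusted p under 0.05 numbered 2 (Tlr4 and Ifnar2), 1 (Tnfrsf1b) and 0 in young mice, beside 10.4%, 11.5% and 9.63% of genes. In aged mice they numbered 0 in each comparison, beside 3.41%, 3.29% and 2.7% of genes. DESeq2 called 1 member, Tlr4, in young LT- against ST-HSCs, where it called 3.02% of all genes, and 0 elsewhere. Limma-voom called 0 of 10 in every comparison.

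Tlr4 was at 73.7, 50.5 and 50.5 CPM in young LT-HSCs, above the 34.4, 43.8 and 23.1 CPM of young ST-HSCs. The log2 difference was 0.79 (SE 0.25, 95% interval 0.27 to 1.31, unadjusted p = 0.00531, adjusted p = 0.215) with edgeR and 0.80 (adjusted p = 0.0430) with DESeq2. It was 0.58 without young LT-HSC library 1. In aged mice LT-HSCs had 51.7, 38.9 and 65.3 CPM and ST-HSCs 54.9, 54.1 and 47.0 CPM, which overlapped, with a log2 difference of 0.00 (95% interval -0.52 to 0.52). Ly96 and Cd14, the partners of Tlr4 in lipopolysaccharide recognition, were scarce, at 0 to 5.74 and 0 to 4.09 CPM.

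**Figure D4:**
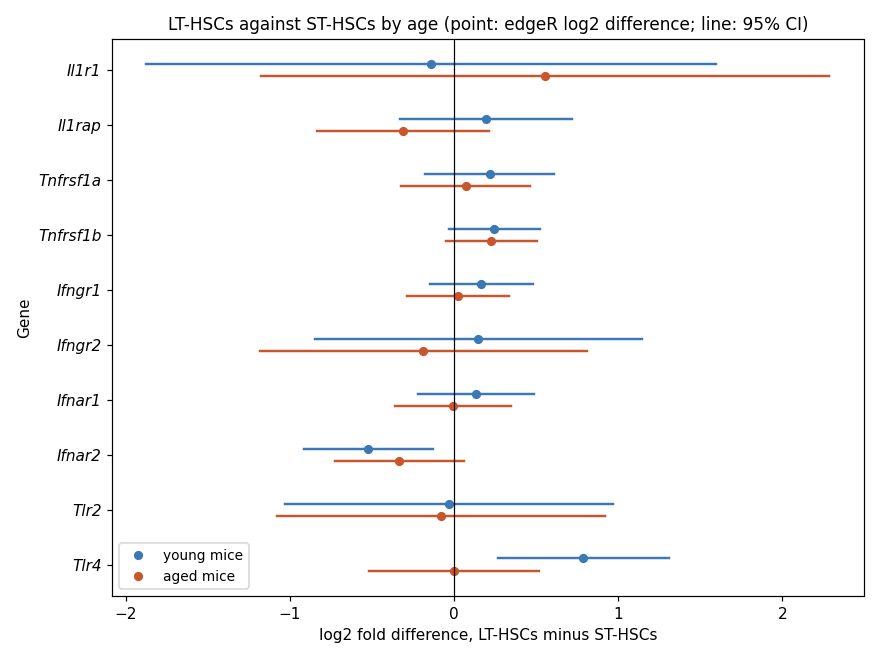
Difference between LT-HSCs and ST-HSCs for each receptor gene, as edgeR log2 fold difference (LT minus ST, x axis) with its 95% confidence interval, in young and aged mice. Tlr4 stands at 0.79 in young and 0.00 in aged mice, and Ifnar2 is below 0 at both ages (-0.52 and -0.33).

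Ifnar2 was lower in LT-HSCs than in ST-HSCs at both ages, without overlap, but did not pass the adjusted test. In young mice LT-HSCs had 59.4, 58.1 and 38.9 CPM and ST-HSCs 80.2, 77.2 and 67.3 CPM. In aged mice LT-HSCs had 59.1, 46.1 and 57.7 CPM and ST-HSCs 66.9, 68.6 and 69.6 CPM. The log2 difference was -0.52 (SE 0.19, adjusted p = 0.301) in young and -0.33 (SE 0.19, adjusted p = 1) in aged mice by edgeR. Without young LT-HSC library 3 the young difference was -0.35. Averaged over both ages, a contrast chosen after the values were seen, it was -0.43 (SE 0.13, 95% interval -0.71 to -0.15, adjusted p = 0.201, edgeR), and DESeq2 gave an adjusted p of 0.0534. Against bulk-HSCs the averaged difference was -0.32 (SE 0.13, adjusted p = 0.461, edgeR).

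Ifnar1, the other chain of that receptor, had a log2 difference between LT- and ST-HSCs of 0.14 in young and -0.01 in aged mice. The ratio of Ifnar1 to Ifnar2 per kb was 1.33, 1.40 and 1.65 in young LT-HSCs and 0.919, 1.03 and 0.759 in young ST-HSCs. In aged mice it was 1.19, 1.697 and 1.37 in LT-HSCs and 1.10, 1.13 and 1.11 in ST-HSCs. All 6 LT-HSC libraries thus lay above all 6 ST-HSC libraries in this ratio, which was noticed in the values and not tested. The bulk-HSC libraries ran from 0.843 to 1.31 and overlapped both.

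**Figure D5:**
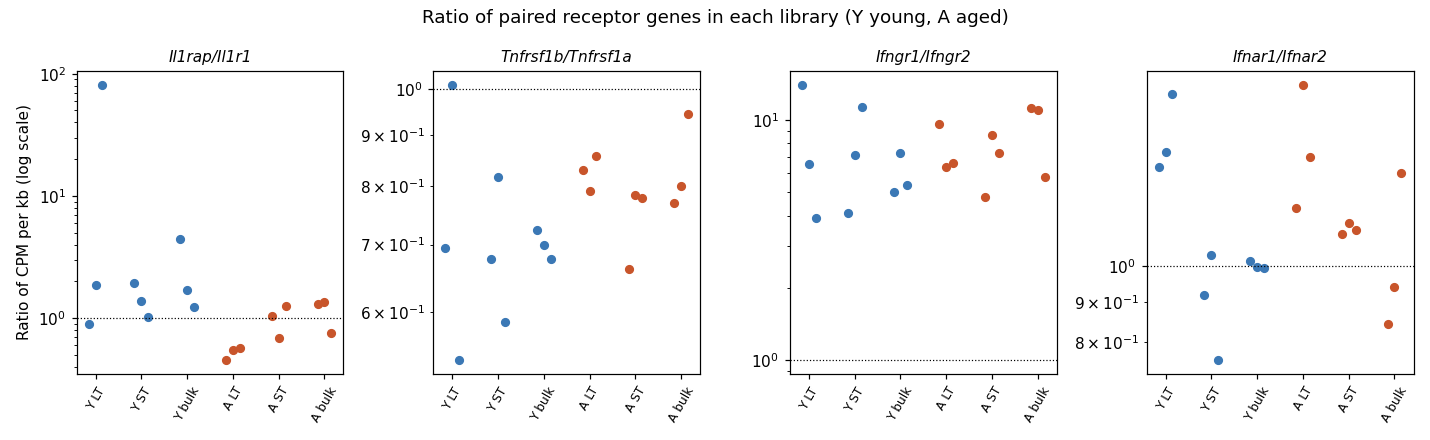
Ratio of paired receptor genes per kilobase of exon (log axis) in each library, by age (Y young, A aged) and fraction, with a dotted line at a ratio of 1. Ifnar1/Ifnar2 is 1.19 to 1.697 in LT-HSC libraries and 0.759 to 1.13 in ST-HSC libraries, and Il1rap/Il1r1 reaches 81.5 in young LT-HSC library 3.

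The chains of the interferon gamma receptor were less balanced, with Ifngr1 3.92 to 14.1 times as high per kb as Ifngr2 over the 18 libraries. Tnfrsf1b was 0.537 to 1.01 times as high as Tnfrsf1a. Tlr4 was 0.771 to 3.65 times as high as Tlr2.

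Tnfrsf1b was at 157, 140 and 145 CPM in young LT-HSCs and 116, 112 and 132 CPM in young bulk-HSCs, without overlap, a log2 difference of 0.29 (SE 0.13, adjusted p = 0.399, edgeR). In aged mice its LT-HSC libraries, at 156 to 163 CPM, lay above the ST-HSC libraries, at 124 to 142 CPM, with a log2 difference of 0.23 (SE 0.13, adjusted p = 1, edgeR). Members without overlap in young mice numbered 2 for LT- against ST-HSCs (Tlr4 and Ifnar2), 1 for LT- against bulk-HSCs (Tnfrsf1b) and 0 for ST- against bulk-HSCs, where 12.1%, 12.2% and 10.9% of all genes did so. In aged mice they numbered 2 (Tnfrsf1b and Ifnar2), 1 (Il1rap) and 1 (Tlr4), beside 15%, 15.1% and 14.5% of genes. Averaged over both ages, edgeR called 0 members in LT- against ST-HSCs, LT- against bulk-HSCs and ST- against bulk-HSCs, with backgrounds of 0.812%, 0.195% and 0.101%, and DESeq2 and limma-voom likewise called 0. Members with an unadjusted p under 0.05 numbered 3 (Ifnar2, Tnfrsf1b and Tlr4), 1 (Ifnar2) and 0, beside 9.61%, 8.96% and 6.96% of genes.

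Within their groups the members varied to different degrees. The median coefficient of variation over the 6 groups was 7.89% for Tnfrsf1b and 8.29% for Tnfrsf1a, and 29.9% for Tlr2, 30.8% for Il1r1 and 39.6% for Ifngr2. Over the libraries, the 45 pairwise correlations of members had a median of 0.13 and ran from -0.54 (Tnfrsf1a with Ifnar2) to 0.57. The genes most like Il1r1 over the 18 libraries were Tnk2 (r = 0.93), Stk39 (r = 0.93) and Ercc8 (r = 0.92). Those most like Tnfrsf1a were Mrpl28 (r = 0.79), Fam120a (r = 0.76) and Tap2 (r = 0.74). These points share libraries, groups and depth, and the correlations are descriptions.

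Related receptors and the steps downstream were described from 6 lists, in which 129 genes were tested. With edgeR 1 of the 129 was called with age for LT-HSCs (0.775%), 0 for ST-HSCs and 2 for bulk-HSCs (1.55%), where 0.445%, 0.851% and 1.98% of all genes were. The averaged contrast called 10 (7.75%) beside 6.75% of all genes, so the shares of called list genes were near the background. With the covariate for detected genes 8 of these 10 calls were lost, at adjusted p-values of 0.181 to 0.617 (edgeR), and those of Stat3 and Socs3 held. Among the lost calls, the estimates of Gbp4, Relt and Tab2 grew in size and those of Ifnlr1, Il18rap, Irak3, Oas2 and Sp100 shrank. Detected genes numbered 13526 to 14133 in aged and 11548 to 13876 in young libraries, so the covariate also takes up part of an age difference. The matching loss among all called genes is not given here. Of 27 related interleukin 1, Toll-like and class II cytokine receptors, 15 passed the filter and none was called with age in a single fraction by edgeR. Il18rap, the accessory chain for interleukin 18, was at 30.4 ± 10.6 CPM in young and 63.7 ± 4.23 CPM (SD, n = 3 each) in aged ST-HSCs, and rose in the averaged contrast (log2 0.78, adjusted p = 0.0148, edgeR), with log2 0.58 and an adjusted p of 0.523 under the covariate. Ifnlr1, the interferon lambda receptor, had 0 counts in all 9 young libraries and a mean of 8.71 CPM in aged LT-HSCs, 0.830 in aged ST-HSCs and 2.14 in aged bulk-HSCs. Against a floor of 3 counts per library, its mean over the aged libraries was at least 25.4-fold higher (averaged contrast, adjusted p = 0.00472, edgeR), while limma-voom gave an adjusted p of 0.0536 and the covariate 0.358. The median log2 change of the 15 was 0.31, 0.80 and 0.76 in LT-, ST- and bulk-HSCs, with groups at 0 set to that floor. Several of the 15 are near the detection limit in young libraries.

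Of 25 related TNF receptor family members, 18 were tested, none was called in a single fraction, and the median log2 changes were 0.20, -0.03 and -0.12. The background of called genes was 0.445%, 0.851% and 1.98% in LT-, ST- and bulk-HSCs and 6.75% in the averaged contrast. Relt fell in the averaged contrast (log2 -0.62, adjusted p = 0.0365, edgeR), a call lost when any of several single libraries was left out, with an adjusted p of 0.0807 without aged bulk-HSC library 1. Under the covariate Relt had log2 -0.76 and an adjusted p of 0.258. All 26 adaptors and kinases downstream of the Toll-like, interleukin 1 and TNF receptors were tested, and the median log2 changes were 0.14, 0.14 and 0.26. Tab2, an adaptor of the kinase Map3k7, fell in bulk-HSCs from 210, 204 and 215 CPM to 143, 144 and 154 CPM (log2 -0.51, adjusted p = 0.0272, edgeR), with an adjusted p of 0.111 without aged bulk-HSC library 1 and 0.124 under the covariate. Irak3, a negative regulator of Toll-like receptor signalling, rose in the averaged contrast (log2 0.46, adjusted p = 0.00363, edgeR), with log2 0.38 and an adjusted p of 0.297 under the covariate.

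Stat3 was the interferon and cytokine pathway gene called with age in single fractions, out of 17 tested with median log2 changes of 0.02, 0.05 and -0.06. The background of called genes was 0.445%, 0.851% and 1.98% in the same order. Stat3 was at 268, 266 and 294 CPM in young and 412, 402 and 397 CPM in aged LT-HSCs, and at 219, 182 and 253 CPM in young and 373, 363 and 346 CPM in aged bulk-HSCs. The log2 rise was 0.55 (adjusted p = 0.0316, edgeR) in LT-HSCs and 0.73 (adjusted p = 0.00171, edgeR) in bulk-HSCs, and in ST-HSCs the estimate was 0.46 (adjusted p = 0.0619). The LT-HSC call was lost without any one of the 6 LT-HSC libraries, with adjusted p-values of 0.0501 to 0.109, and under the covariate (0.0911). Socs3, a feedback inhibitor of Stat3 signalling, rose in the averaged contrast (log2 1.95, adjusted p = 0.00515, edgeR), and its estimate under the covariate was 3.41 (adjusted p = 0.00629).

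Of 53 interferon-stimulated genes, 51 were tested and none was called with age in a single fraction by edgeR, with median log2 changes of 0.03, 0.11 and -0.04. In the averaged contrast 2 rose, Sp100 (log2 0.39, adjusted p = 0.0104) and Gbp4 (log2 0.90, adjusted p = 0.0157), and 1 fell, the antiviral sensor Oas2 (log2 -2.38, adjusted p = 0.00516). Of all tested genes, edgeR called 6.75% in that contrast and 0.445%, 0.851% and 1.98% in LT-, ST- and bulk-HSCs. Under the covariate the log2 values were 0.22 for Sp100, 0.95 for Gbp4 and -2.07 for Oas2, with edgeR adjusted p-values of 0.617, 0.297 and 0.181. Of 12 ligands, Il18 and Tnf passed the filter, at 0 to 19.3 and 0 to 6.10 CPM, and neither was called. Ifng, Ifnb1, Il33 and Lta had 0 counts in all libraries.

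Markers of other cells were also summed. The erythroid list, the highest of them, was at 478 to 570 CPM in young and 607 to 660 CPM in aged LT-HSCs, 622 to 728 and 687 to 751 CPM in ST-HSCs, and 624 to 874 and 712 to 740 CPM in bulk-HSCs. The megakaryocyte list was at 9.08 to 18.8 CPM in young and 22.1 to 29.95 CPM in aged LT-HSCs, 16.5 to 28.9 and 29.4 to 49.2 CPM in ST-HSCs, and 28.8 to 46.2 and 34.0 to 47.0 CPM in bulk-HSCs. Aged libraries were thus above young ones without overlap for erythroid markers in LT-HSCs and for megakaryocyte markers in LT-HSCs and ST-HSCs. Summed B cell markers were at 10.6 to 29.2 CPM and mast cell, basophil and eosinophil markers at 0 to 7.09 CPM. Summed neutrophil markers were at 0 to 21.0 CPM, stromal markers at 0 to 12.9 CPM with Col1a1 and Adipoq at 0, and dendritic cell markers at 0 to 9.74 CPM. Summed monocyte and macrophage markers were at 102 to 177 CPM with overlapping ranges in young and aged libraries. The T and NK list ran from 4.80 to 26.3 CPM in young and 61.4 to 137 CPM in aged LT-HSCs, 0.227 to 23.6 and 22.6 to 45.4 CPM in ST-HSCs, and 6.44 to 13.2 and 52.6 to 64.8 CPM in bulk-HSCs, carried by Klrb1c, with Cd3e, Cd3g, Cd8a, Ncr1 and Gzma at 0 in all. Flt3, Cd48 and Cd34, which mark the progenitors that the HSC gate leaves out, summed to 114 to 177 CPM in young and 67.8 to 75.2 CPM in aged LT-HSCs, 250 to 339 and 129 to 148.5 CPM in ST-HSCs, and 164 to 215 and 63.7 to 100.6 CPM in bulk-HSCs. Most of this sum was Cd34, with a mean of 129.9 CPM, beside 25.2 CPM for Flt3 and 0.387 CPM for Cd48. The part of any of these marker lists in the receptor values was not tested.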

How the data were processed

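RNA of LT-, ST- and bulk-HSCs was isolated with Trizol and cleaned on RNeasy MinElute columns, ribosomal RNA was depleted and libraries were made with a KAPA RNA HyperPrep kit. The authors aligned reads to mm10 with HISAT2 and used StringTie 1.3.4d and SAMtools 1.7. The deposited values are raw read counts per gene symbol, whole numbers without normalization. The annotation and strand setting are not given in the sources used here.

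Groups came from the sample labels. Counts were scaled by TMM factors in edgeR 4.0.16 (R 4.3.3), and genes averaging 1 CPM or more, 12808 in number, were tested in 1 quasi-likelihood fit of the 6 group means, with 12 residual degrees of freedom and Benjamini-Hochberg adjustment over all of them. Standard errors came from the log2 change and the F statistic. DESeq2 1.42.0, limma 3.58.1 (voom with quality weights), other scalings and filters, a replicate block and left-out libraries were alternatives. The script was tested on simulated data. Whether equal library numbers share animals is not stated, and the numbers were not taken as a pairing. All members were named, and list genes were named when called with age or for the smallest p. Names beyond that rule (Cd14, Ly96, Ifng, Ifnb1, Il33, Lta) were chosen after their values were seen. The members and lists were chosen with earlier results of these data known.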

Additional observations from a re-analysis of the deposited data

Results flagged for a closer look

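Il1rap was separated by age in opposite directions in LT-HSCs and bulk-HSCs. All 3 aged LT-HSC libraries were below all 3 young ones, and all 3 aged bulk-HSC libraries were above all 3 young ones. Of all tested genes, 16.1% in LT-HSCs and 22.7% in bulk-HSCs had no overlap between ages. The LT-HSC gap was narrow, with a highest aged value of 31.4 CPM and a lowest young value of 32.0 CPM. The bulk-HSC log2 change of 0.51 was 0.29 without young bulk-HSC library 1. The difference of the log2 changes, LT-HSCs minus bulk-HSCs, was -0.77 (SE 0.35, unadjusted p = 0.0433, adjusted p = 0.838 in edgeR), and its adjusted p ran from 0.545 to 1 over the alternatives. LT-HSCs are part of bulk-HSCs, and the libraries were made separately.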

How the results depend on the processing

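The count of members called was 0 in every comparison under all alternatives but one. With DESeq2 in place of edgeR the count for young LT-HSCs against young ST-HSCs was 1 (Tlr4, log2 0.80, adjusted p = 0.0430), and the cause was not tested. No value that was followed across the alternatives (differences without overlap or with an unadjusted p under 0.05, Il1r1 with age, and the called list genes) changed sign, and the 60 group levels moved by less than 1 SD with library size alone as the scaling.

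When single libraries were left out, the log2 change of Il1r1 ran over 0.96 to 2.64 (LT-HSCs), 0.59 to 1.07 (ST-HSCs), 0.69 to 1.68 (bulk-HSCs) and 0.98 to 1.54 (averaged). Without both libraries under 12000 detected genes, an alternative chosen after seeing the data like the averaged contrasts, the change in LT-HSCs was 0.95, and 0 members were called in each comparison.

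Same-numbered libraries of an age correlated at -0.03 to 0.16, and differently numbered ones at -0.16 to 0.06. The highest values joined young LT- and ST-HSC libraries of number 2 (0.16) and number 3 (0.13). Whether these share animals was not tested. The numbers were not taken as a pairing because the labels do not state one. With a replicate block the member count stayed at 0 in every comparison, and Tlr4 in young LT- against ST-HSCs had a log2 difference of 0.77. With 3 libraries a group, the intervals of Il1r1, Ifngr2 and Tlr2 with age reached past 2-fold in every fraction. Those of Tlr4 in ST-HSCs (0.10 to 1.14) and Il1rap in bulk-HSCs (-0.01 to 1.04) also did so. Changes of that size were not excluded there.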
